A study of Sus scrofa with 4 samples.

Results

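The genes described here encode proteins of the spliceosome and of nuclear ribonucleoproteins. They were taken as every EMPV1 probe whose platform symbol, joined by spot number, starts with SNRP, SF3A, SF3B, SRSF, SFRS, HNRNP, HNRP, PRPF, U2AF, or LSM followed by a number. This gave 44 of 10024 named genes, with 74 of 43794 probes, and all probes of a gene were kept. The prefixes SRSF and HNRP held 0 probes, and the serine- and arginine-rich factors appeared under their older SFRS symbols. EMPV1 is a porcine oligonucleotide array design read in 2 colours. On each of 4 arrays a pool of 10 pig (Sus scrofa) blastocysts grown from oocytes given much non-esterified fatty acid (high NEFA) was set against a pool of 10 control blastocysts, and collection was on days 7 and 8. Non-esterified fatty acids are the free fatty acids released when fat stores are mobilised. Cy3 marked the high NEFA pool on replicates 1 and 2, and Cy5 marked it on replicates 3 and 4. The title mentions co-culture on a GCs monolayer, an abbreviation that the labels neither spell out nor assign to 1 kind of pool, and the labels give no dose, no exposure time and no day for each pool. Nothing in them says that the pools came from separate sows or collections. A p-value here therefore reflects only variation among these pools, which may be technical. The variance behind it is moderated, that is, drawn towards a value shared by all tested probes.

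The labels give total RNA as the molecule, while their extraction and labelling protocols describe genomic DNA cut by methylation-sensitive enzymes, and which of these was hybridised was not tested. Values are therefore called intensities. Per array, 57.1% to 60.3% of all probes were above background in Cy3 and 49.0% to 51.2% in Cy5. Above background means brighter than the negative control spots by over 2 SD from their mean. Of the listed trophectoderm genes, all 7 on the array were tested, and GATA3, GATA2 and TFAP2C were above background in all 8 channels (4 arrays, 2 dyes). Of 5 inner cell mass genes on the array, 4 were tested, with LIN28A and UTF1 above background in all 8 channels. SALL4 was not tested. POU5F1, NANOG and CDX2 had no named probe. Of 8 oocyte genes on the array, 5 were tested, with GDF9, ZP2 and ZP4 above background in all 8 channels. BMP15, FIGLA and H1FOO were not tested. Of 3 granulosa cell genes on the array, AMH was above background in all 8 channels and INHBA and NR5A1 were not tested. The log2 of the summed intensity of all probes of these 3 genes, tested or not, was 10.18 to 10.93 in high NEFA pools. It was 10.07 to 10.98 in the control pools. The part of these genes in the results was not tested. In pools, fewer cells of a type and less RNA per cell cannot be told apart.

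Splicing removes introns from pre-messenger RNA. Small nuclear ribonucleoproteins, each a small RNA with a ring of Sm or LSm proteins and some proteins of its own, recognise the splice sites and form the catalytic core. SF3A and SF3B belong to the particle that binds the branch point, U2AF marks the end of the intron, and PRPF proteins act in the assembly and activation of the spliceosome. SR proteins and heterogeneous nuclear ribonucleoproteins (hnRNPs) bind the transcript and influence which sites are used. In mammalian embryos splicing factors are supplied at first by the oocyte and later by the embryonic genome.

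Most members gave a signal in every pool. Of the 74 probes, 55 (74.3%) exceeded background in all 8 channels, against 31.7% of all probes on the array. The test took probes with at least 4 of 8 channels above background, which were 62, for 41 genes. HNRNPA0, LSM7 and SF3B3 had no tested probe. HNRNPA0, an hnRNP of the A/B type, was above background in 0 of 8 channels, LSM7 in 3 and SF3B3 in 1. The other 9 untested probes belonged to HNRNPH1, HNRNPH3, HNRNPM, PRPF18, PRPF39, PRPF40B and U2AF1L4, which each had at least 1 tested probe besides. No member spot was saturated or marked to be ignored on any array.

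No member passed the test of exposure. The limma fit estimated a log2 ratio of high NEFA over control and a dye coefficient for each probe. In it, 0 of 62 member probes had a Benjamini-Hochberg adjusted p under 0.05, where 0% of all tested probes did. The smallest adjusted p among members was 0.764. An unadjusted p under 0.05 was found for 5 member probes (8.06%), against 6.41% of the 24524 tested probes. All 5 were higher in the high NEFA pools, where the background is 3.17%, and 0 were lower, where it is 3.24%. Fitted ratios of the 62 probes ran from -0.17 to 0.43. Of these, 41 were above 0 (66.1%, against 48.2% of all tested probes) and 21 below, with a median of 0.04 against -0.01 over all tested probes. The 95% interval lay within a 1.5-fold difference in either direction for 56 of the 62 probes (90.3%), against 87.9% of all tested probes, and reached a 2-fold difference for 0.

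**Figure D1:**
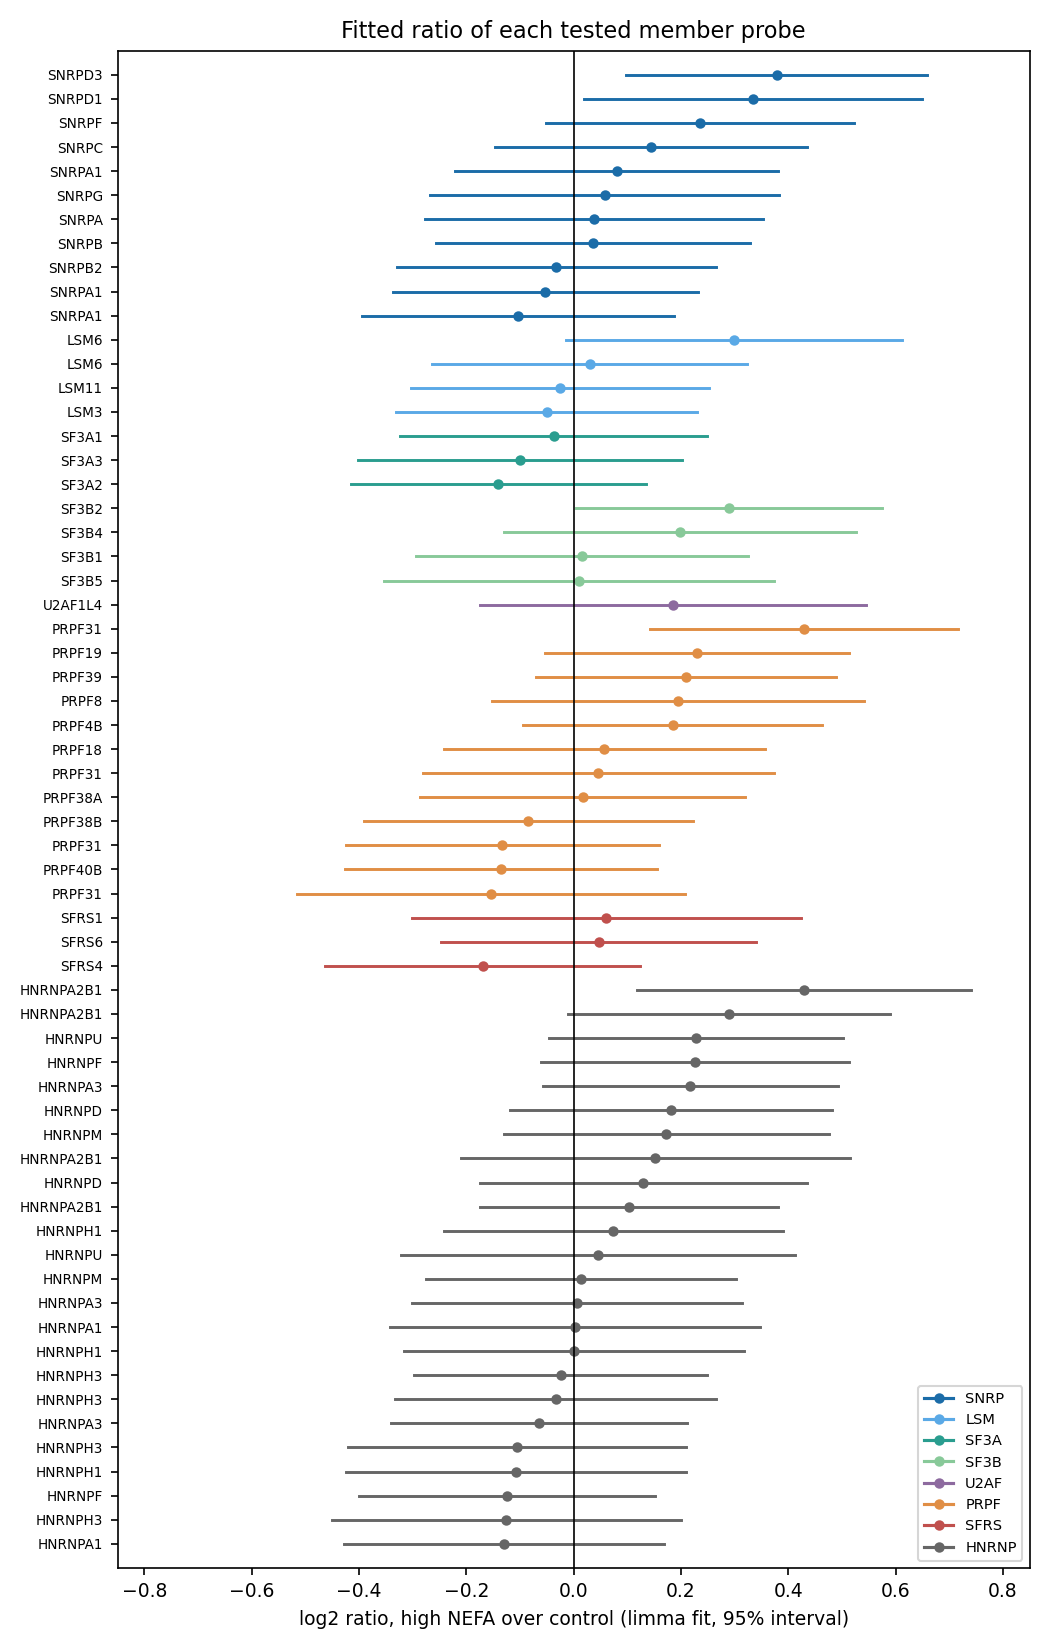
Fitted log2 ratio of high NEFA over control (horizontal axis) for each of the 62 tested member probes, grouped and coloured by symbol prefix, with points for the limma estimate over 4 arrays and bars for its 95% interval. Estimates run from -0.17 to 0.43, and the intervals of 5 probes lie above 0, none of which passed the adjusted threshold.

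The core small nuclear ribonucleoprotein genes held 2 of the 5 probes. SNRPD3, a protein of the Sm ring that most spliceosomal particles carry, was higher on all 4 arrays. Its log2 intensity was 11.63, 10.77, 11.42 and 11.54 in the exposed pools of replicates 1 to 4, against 11.46, 10.47, 10.79 and 11.14 in their controls. The 2 kinds of pool overlap when arrays are pooled, and replicate 2 was the lowest in both. Within arrays, the ratios were 0.17, 0.30, 0.63 and 0.41. The fitted ratio was 0.38 ± 0.13 (moderated SE, n = 4, as for all SE of ratios below), a 1.30-fold difference. Such an SE is not the spread of the 4 array ratios of a probe. Its 95% interval was 0.10 to 0.66 and its unadjusted p 0.0135. With the mean in place of the median pixel intensity of each spot, the ratio was 0.28 ± 0.05.

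SNRPD1, another Sm ring protein, had log2 intensities of 14.39, 13.63, 14.77 and 14.92 in the high NEFA pools and 14.30, 14.08, 14.07 and 13.92 in the control pools. Replicate 2 went the other way from the other 3 arrays, with a ratio of -0.45 against 0.09, 0.70 and 1.00. The mean ratio was -0.18 on replicates 1 and 2 and 0.85 on replicates 3 and 4, which had the other dye orientation. The dye coefficient of 0.52 was larger than the exposure coefficient. The fitted ratio was 0.33 ± 0.14, with an unadjusted p of 0.0394, and without replicate 1 it was 0.20. Of the remaining Sm proteins, SNRPF had 0.24 ± 0.13, SNRPG 0.06 ± 0.15 and SNRPB 0.04 ± 0.13. The intervals of SNRPF, SNRPG and SNRPB included 0, and the ratio of SNRPG was -0.12 without replicate 1.

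The intervals of the proteins particular to single particles all included 0. SNRPA and SNRPC, which belong to the particle that reads the start of the intron, had 0.04 ± 0.14 and 0.14 ± 0.13. SNRPA1 and SNRPB2, of the branch point particle, had -0.10, -0.05 and 0.08 over the 3 probes of the first and -0.03 ± 0.13 for the second. In all, 8 of the 11 SNRP probes were above 0, with a median of 0.06. Among LSM genes, LSM3 and LSM6 code for parts of the ring on the U6 RNA, and LSM11 for a part of the particle that trims histone messengers. Their 4 tested probes had ratios of -0.05 for LSM3, -0.03 for LSM11 and 0.03 and 0.30 for LSM6. The second LSM6 probe had ratios of -0.57, -0.21, 0.74 and 1.23 on replicates 1 to 4, negative on both arrays of 1 dye orientation and positive on both of the other. Its interval, -0.01 to 0.61, included 0. The mean local background of this probe, EMPV1_41072, was 111.2 in the high NEFA and 146.8 in the control channels.

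**Figure D2:**
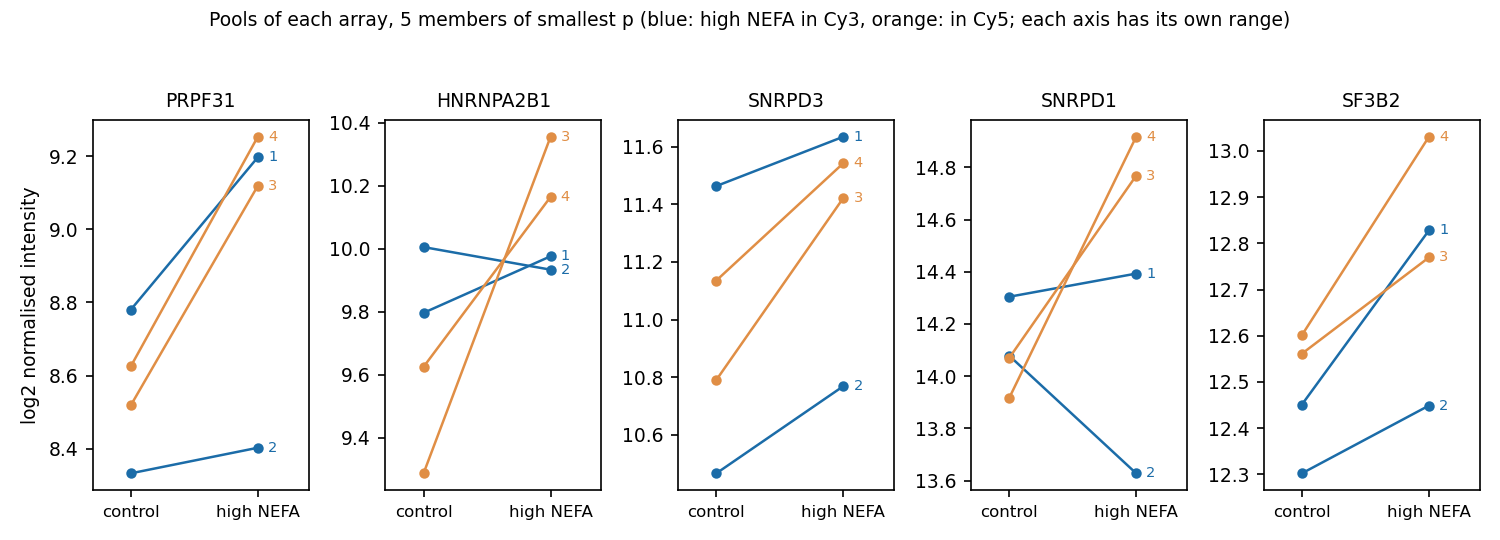
Log2 normalised intensity (vertical axis, with its own range for each gene) of the control and the high NEFA pool of each array, joined by a line and numbered by replicate, for the 5 member probes with an unadjusted p under 0.05. Lines rise on all 4 arrays for PRPF31, SNRPD3 and SF3B2, and fall on replicate 2 for HNRNPA2B1 and SNRPD1.

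Among subunits of the branch point particle, all 4 SF3B probes had fitted ratios above 0 and all 3 SF3A probes had ratios below 0. Of all tested probes, 48.2% were above 0. These are few probes, and SF3B2 had the 1 interval that left out 0. Each SF3A probe changed sign between the dye orientations. The ratios of SF3B1 and SF3A3 changed sign under other processing, as given below. SF3B2 was higher on all 4 arrays. Its log2 intensity was 12.83, 12.45, 12.77 and 13.03 in the high NEFA pools and 12.45, 12.30, 12.56 and 12.60 in the control pools. The ratios of 0.38, 0.15, 0.21 and 0.43 were all positive and differed little between the dye orientations, with means of 0.26 and 0.32. The fitted ratio was 0.29 ± 0.13, the interval 0.01 to 0.58 and the unadjusted p 0.0467. Means of the 2 dye orientations were further apart for the other probes with an unadjusted p under 0.05 in the limma fit. On replicates 1 and 2, then 3 and 4, they were 0.24 and 0.52 for SNRPD3 and 0.24 and 0.61 for PRPF31. For HNRNPA2B1 they were 0.05 and 0.80, and those of SNRPD1 are given above. SF3B4 had 0.20 ± 0.15. SF3B1, the subunit that contacts the branch point helix, had 0.02 ± 0.14, and SF3B5 had 0.01 ± 0.16. The SF3A ratios were -0.04 ± 0.13 for SF3A1, -0.14 ± 0.12 for SF3A2 and -0.10 ± 0.14 for SF3A3, and each interval included 0. The SF3A3 ratios were 0.42, 0.55, -0.93 and -0.44 on replicates 1 to 4. U2AF1L4, a relative of the small U2AF subunit, had 0.19 ± 0.16 from its only tested probe. Replicate 2 stood at 0.73 there, and without it the ratio was -0.03.

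PRPF31 had the smallest p of the members on 1 of its 4 probes. PRPF31 holds the U4/U6 particle to its partner in the tri-particle complex that enters the spliceosome. Probe EMPV1_32394 had log2 intensities of 9.20, 8.40, 9.12 and 9.25 in the high NEFA pools and 8.78, 8.33, 8.52 and 8.62 in the control pools. It was above background in all 8 channels and higher on all 4 arrays, with ratios of 0.42, 0.07, 0.60 and 0.63. The fitted ratio was 0.43 ± 0.13, a 1.35-fold difference, with an interval of 0.14 to 0.72 and an unadjusted p of 0.0077. The other 3 probes of PRPF31 had -0.13 ± 0.13 (EMPV1_14995), 0.05 ± 0.15 (EMPV1_39035) and -0.15 ± 0.16 (EMPV1_39474). Each of these exceeded background in all 4 Cy3 channels and in 0 of 4 Cy5 channels, so that each of its array ratios was taken against a channel not above background, and each had positive ratios on replicates 1 and 2 and negative ones on replicates 3 and 4. PRPF31 was the only member gene whose tested probes differed by more than 0.5 in fitted ratio, and 3 of its 4 probes are these dim ones.

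Of the other PRPF genes, PRPF39, a partner of the particle at the start of the intron, had 0.21 ± 0.13, and PRPF4B, a kinase of the spliceosome, had 0.18 ± 0.12, both positive on all 4 arrays. PRPF19, the ubiquitin ligase of the complex that joins at activation, had 0.23 ± 0.13. PRPF8, the large scaffold of the catalytic core, had ratios of -0.20, 0.65, 0.16 and 0.17. Its fitted ratio of 0.19 ± 0.16 rested on replicate 2 and was -0.02 without it. PRPF18, which acts at the second catalytic step, had 0.06 ± 0.13, and PRPF38A had 0.02 ± 0.14. PRPF38B and PRPF40B had -0.08 ± 0.14 and -0.14 ± 0.13. Of the 12 PRPF probes, 8 were above 0, with a median of 0.05.

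The serine- and arginine-rich factors, which help define exons, had 3 probes. SFRS1 (current symbol SRSF1) had 0.06 ± 0.16, SFRS6 (SRSF6) 0.05 ± 0.13 and SFRS4 (SRSF4) -0.17 ± 0.13, the lowest fitted ratio of the 62. The SFRS1 ratios of -1.02, -0.09, 0.75 and 0.60 spanned the widest range of these 3 genes and followed the dye of the high NEFA pool.

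The hnRNP genes held 24 tested probes for 9 genes, 16 above 0 and 8 below, with a median of 0.03. HNRNPA2B1, an hnRNP of the A/B type that packages nascent transcripts, had all 4 probes above 0, at 0.43, 0.29, 0.15 and 0.10. On EMPV1_41378 the log2 intensity was 9.98, 9.93, 10.36 and 10.16 in the high NEFA pools and 9.80, 10.01, 9.29 and 9.62 in the control pools. Replicates 3 and 4 were apart by 1.07 and 0.54, while replicates 1 and 2 had ratios of 0.18 and -0.07. The fitted ratio of 0.43 ± 0.14 had an unadjusted p of 0.0117. The second probe, EMPV1_02895, had 0.29 ± 0.13 with an interval of -0.01 to 0.59. EMPV1_09587 had a ratio of -0.67 on replicate 2. EMPV1_40032 had 0.85, 0.76, -0.51 and -0.69 on replicates 1 to 4 and was above background in 2 of 4 Cy5 channels. The 4 probes were read on the same arrays and are not replicates of each other.

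HNRNPH3, a relative of HNRNPH1 that binds G-rich stretches, had all 4 tested probes below 0, from -0.13 to -0.02. Each of these probes changed sign between the dye orientations, and each interval included 0. EMPV1_43777 did so in the opposite direction to the rest, with ratios of 0.67, 0.67, -0.70 and -0.75 on replicates 1 to 4. HNRNPD, also called AUF1, which binds AU-rich messengers, had 0.13 and 0.18. HNRNPU, a scaffold-attachment protein of the nucleus, had 0.04 and 0.23, and HNRNPM had 0.01 and 0.17. The probes of HNRNPF disagreed in sign. EMPV1_09299 was the only member probe below 0 on all 4 arrays, with ratios of -0.21, -0.09, -0.13 and -0.06 and a fit of -0.12 ± 0.12, and EMPV1_22789 had 0.23 ± 0.13. HNRNPA1, HNRNPA3 and HNRNPH1 had probes on both sides of 0, between -0.13 and 0.22.

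**Figure D3:**
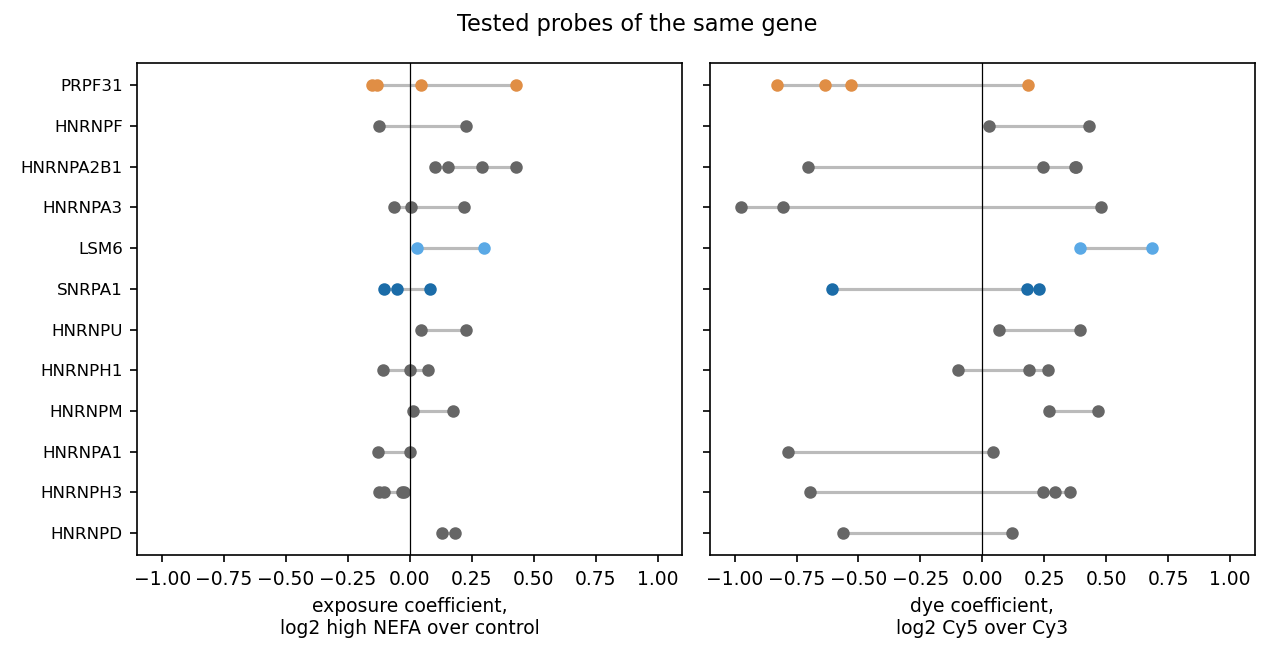
Exposure coefficient (left, log2 of high NEFA over control) and dye coefficient (right, log2 of Cy5 over Cy3) of every tested probe of the 12 genes with several, 1 row per gene and 1 point per probe. The median spread between probes of a gene is 0.18 on the left and 0.75 on the right.

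Across the 12 genes with several tested probes, the fitted ratios of a gene's probes differed by 0.05 (HNRNPD) to 0.58 (PRPF31), with a median of 0.18. This is of the order of the median SE of a member probe, 0.13. In 6 of the 12 genes the probes lay on both sides of 0. The dye coefficients of probes of 1 gene were further apart, with a median difference of 0.75 and a largest one of 1.45 for HNRNPA3. Its 3 probes had dye coefficients of -0.97, -0.81 and 0.48 while their exposure ratios were -0.07, 0.22 and 0.01.

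Fitted dye coefficients were mostly larger in size than exposure coefficients, for members and for all tested probes alike. Replicates 1 and 2 had 1 dye orientation and replicates 3 and 4 the other. A difference by dye therefore cannot be told apart from a difference between the pools of these arrays. For 37 of the 62 probes both arrays of 1 dye orientation were positive and both of the other negative (59.7%, against 41.6% of all tested probes). This held for all 4 LSM and all 3 SF3A probes, 15 of 24 HNRNP, 7 of 12 PRPF, 6 of 11 SNRP, 2 of 3 SFRS and 0 of 4 SF3B probes. The dye coefficient exceeded the exposure coefficient in size for 46 of 62 probes (74.2%, against 72.7% of all tested probes). The EMPV1_09162 probe of HNRNPA3 had ratios of 0.98, 1.07, -0.63 and -0.55, from which the fit gave an exposure ratio of 0.22 ± 0.12 and a dye coefficient of -0.81. Only 6 probes had 1 sign on all 4 arrays. The 5 that were higher (8.06%, against 3.76% of all tested probes) were those of SNRPD3, SF3B2, PRPF39, PRPF4B and 1 of PRPF31, and the 1 lower, where the background is 4.06%, was that of HNRNPF. The share of 1 sign in either direction was 9.68%, near the 7.82% of all tested probes.

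**Figure D4:**
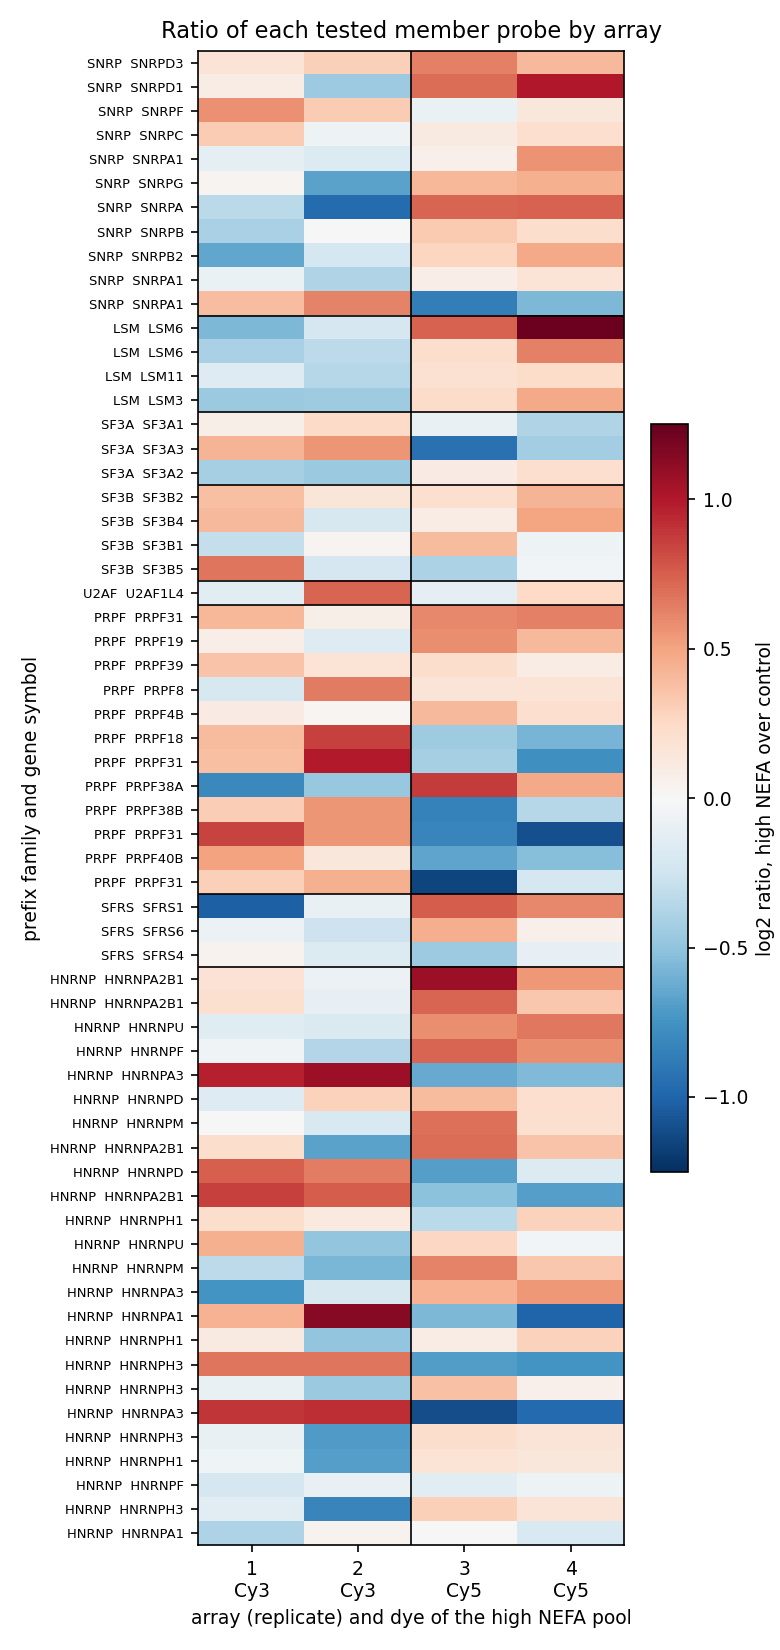
Log2 ratio of high NEFA over control on each array (columns, with the dye of the high NEFA pool) for each tested member probe (rows, by prefix family), in red where high NEFA was higher and in blue where it was lower. For 37 of 62 probes, replicates 1 and 2 both have one colour and replicates 3 and 4 both have the other.

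**Figure D5:**
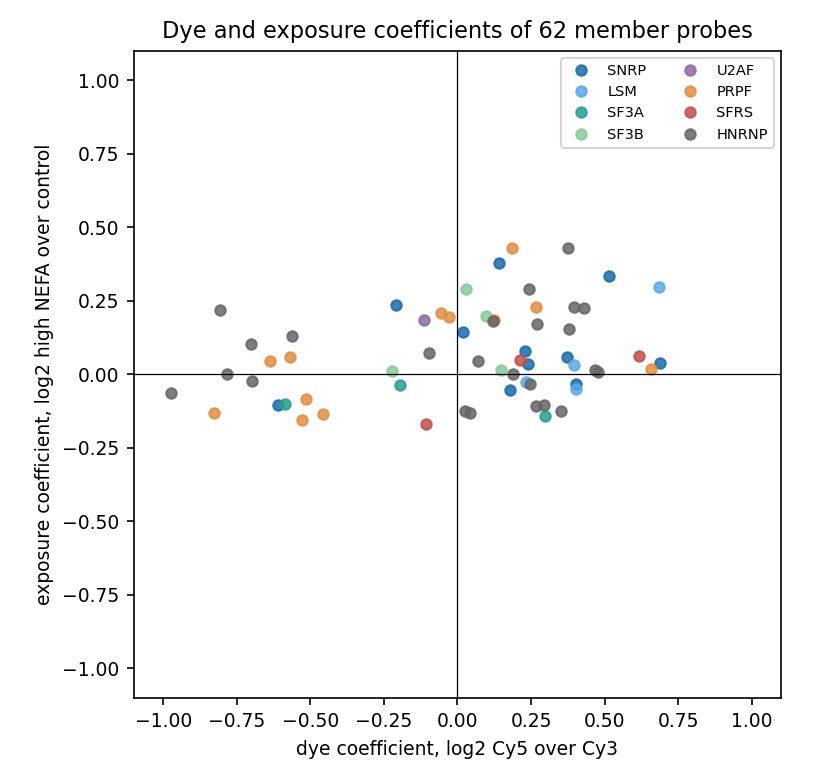
Dye coefficient (horizontal, log2 of Cy5 over Cy3) against exposure coefficient (vertical, log2 of high NEFA over control) for the 62 tested member probes, on axes of equal scale and coloured by prefix. Dye coefficients run from -0.97 to 0.69 and exposure coefficients from -0.17 to 0.43.

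By array, the median ratio of the 62 probes was 0.08, -0.09, 0.20 and 0.20 on replicates 1 to 4, against -0.04, -0.03, 0.04 and 0.04 over all tested probes. On these arrays 34, 27, 41 and 41 of the 62 were above 0. The 2 arrays with the high NEFA pool in Cy5 had the higher medians. The PRPF probes went the other way, with medians of 0.33, 0.31, -0.13 and -0.06, as did the SF3A probes, while the LSM probes had -0.44, -0.34, 0.22 and 0.56.

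The choice of pixel summary changed which members had a small p. With mean pixel intensity, 10 of 62 probes had an unadjusted p under 0.05 (9.31% of all tested probes did). Of these 7 were higher, where the background is 5.02%, and 3 lower, where it is 4.29%, and the smallest adjusted p was 0.511. SNRPD3 was the only probe of the first 5 among these 10. The others of the 5 had 0.16 ± 0.06 for PRPF31, 0.20 ± 0.12 for HNRNPA2B1, 0.13 ± 0.06 for SNRPD1 and 0.10 ± 0.04 for SF3B2, with errors from that fit's own variances. The 5 kept their sign in each fit with 1 array left out. They were chosen by p on these same arrays, so the kept sign adds no support. Their ratios ran from 0.32 to 0.43 for SNRPD3, 0.34 to 0.52 for PRPF31, 0.30 to 0.56 for HNRNPA2B1, 0.20 to 0.47 for SNRPD1 and 0.23 to 0.35 for SF3B2.

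Other genes of the pathway were taken from a list outside the prefixes. Of 131 listed genes for spliceosome helicases, exon junction proteins, splicing kinases, assembly factors and further RNA-binding proteins, 78 were on the array with 120 probes, and 91 probes of 70 genes were tested. In the limma fit 0 of the 91 passed the adjusted threshold. At an unadjusted p under 0.05, 7 were higher (7.69%, against 3.17% of all tested probes) and 0 lower (against 3.24%). The 7 include probes of RBM5 and SNUPN that exceeded background in fewer control than high NEFA pools, as given below. The median ratio was 0.03, with 51 probes above 0 and 40 below. SYNCRIP, also known as hnRNP Q, had 0.46 ± 0.13, and PPIE, a cyclophilin of the spliceosome, 0.40 ± 0.12. On replicates 1 to 4 the ratios were -0.13, 0.15, 1.04 and 0.80 for SYNCRIP and -0.11, -0.05, 0.91 and 0.84 for PPIE. MFAP1, a spliceosome-associated protein, had 0.35 ± 0.12 and was higher on all 4 arrays. PTBP1, the polypyrimidine tract-binding repressor, had 0.36 ± 0.13 on EMPV1_04749, positive on all 4 arrays, and 0.13 and -0.05 on its other tested probes. SNUPN, the import adaptor of spliceosomal particles, had 0.38 ± 0.13 on EMPV1_37995 and 0.07 and -0.01 on its other tested probes. The array ratios of EMPV1_37995 were -0.01, -0.17, 0.62 and 1.07. This probe exceeded background in 4 of 4 exposed but 2 of 4 control pools. With mean pixel intensity the probes with a small p had 0.17 for SYNCRIP, 0.31 for PPIE, 0.22 for MFAP1, 0.09 for PTBP1 and 0.06 for SNUPN. RBM5, an RNA-binding splicing regulator, had a small p on 1 of its tested probes. The other, EMPV1_37430, above background in all 8 channels, had -0.15 ± 0.14. EMPV1_21149 had 0.77 ± 0.20, with ratios of -0.05, -0.08, 0.89 and 2.31. It exceeded background in 3 of 4 exposed but 1 of 4 control pools, over a mean local background of 68.5 and 120 in these channels. With 1 background per array and channel its ratio was 0.36, with mean pixel intensity 0.37, and without replicate 3 it was 1.12 and passed the adjusted threshold (adjusted p 0.00459), with replicate 4 then alone in its dye orientation.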

How the data were processed

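Per the file headers, the deposited scanner files hold raw pixel intensity (mean and median) per spot and around it, for Cy3 at 532 nm and Cy5 at 635 nm, and mark some spots to be ignored. The authors' deposited series matrix holds log2 ratios of unstated direction. By spot number they followed log2 of Cy5 over Cy3 after background subtraction, loess and quantile normalization (correlation 0.992 to 1.000 over probes, column medians 0.0022 to 0.016), which gives their direction and centring, while the settings are not stated. The submitters' processing notes name limma.

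Median intensities were corrected with normexp (offset 50) on all spots and normalized by loess within arrays, controls at weight 0, with limma 3.58.1 in R 4.3.3. Marked spots were left out. Probes above background in at least 4 of 8 channels (24524) were tested on an exposure coefficient signed by dye plus a dye intercept, with empirical Bayes moderation, two-sided, adjusted by Benjamini-Hochberg over all of them. Each probe had 2 residual degrees of freedom, to which the prior brought 7.87. The small number of arrays limits precision. The fit was tested on simulated data, but the settings and outcome are not given here, so this adds no support to the results. Symbols came from the platform table (13146 probes with 1 symbol, 0 with several, 30648 with none). A RefSeq table gave current symbols. No genome build is given in the sources used here, and no sequences or coordinates were used. Levels of different probes were not compared, since probes bind with different strength.

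The members and lists were chosen with earlier results of these data known. Named were member probes with an unadjusted p under 0.05 (up to 12), the probe of largest ratio with 1 sign and the brightest probe of each prefix, genes whose probes differ by over 0.5, and 6 further spliceosome genes of smallest p. The remaining members were named to account for every gene. The alternatives varied the background correction, pixel summary, normalization, filter, dye term and arrays used, or took the series matrix.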

Additional observations from a re-analysis of the deposited data

How the results depend on the processing

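No member probe had an adjusted p under 0.05 in limma under any of the 15 alternatives, and the median ratio of the members stayed between 0.03 and 0.07. The number of member probes with an unadjusted p under 0.05, 5 as reported, was 3 with an offset of 16, 3 with median centring, 10 with mean pixel intensity, 2 without a dye intercept and 3 to 8 with 1 array left out. Over all probes, where 0 passed the adjusted threshold as reported, 6 passed with plain subtraction, 4 with an offset of 16, 5 without a filter, 3 in the authors' series matrix and 21 to 77 with 1 array left out, which leaves 1 array alone in its dye orientation, assumed to vary like the others. Of the other spliceosome genes, 7 as reported, 4 had an unadjusted p under 0.05 when all 8 channels had to be above background, 0 without a dye intercept and 4 to 12 with 1 array left out. Ratios of some named probes whose interval included 0 changed sign, also larger ones such as the 0.19 of PRPF8. With mean pixel intensity HNRNPF (EMPV1_09299) had 0.039, SF3A3 0.013 and PRPF31 (EMPV1_39035) -0.12, and with median centring HNRNPA3 (EMPV1_32119) had -0.034 and SF3B1 -0.0084. With 1 array left out the ratios ran from -0.13 to 0.14 for HNRNPA3, -0.074 to 0.13 for LSM6 (EMPV1_03341), -0.018 to 0.41 for PRPF8, -0.22 to 0.024 for SF3A3, -0.10 to 0.13 for SF3B1, -0.12 to 0.23 for SNRPG, -0.029 to 0.40 for U2AF1L4, and for PRPF31 -0.11 to 0.20 (EMPV1_39035) and -0.39 to 0.078 (EMPV1_39474). The cause was not tested. The ratio within each array pairs its 2 pools, and no further block was fitted.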

Other observations

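With mean pixel intensity, the 10 member probes with an unadjusted p under 0.05 were other ones than with the median, apart from SNRPD3. Higher in the high NEFA pools were both LSM6 probes, at 0.38 ± 0.11 (EMPV1_41072) and 0.20 ± 0.04 (EMPV1_03341), SNRPA at 0.20 ± 0.06, SFRS1 at 0.21 ± 0.06, HNRNPU at 0.15 ± 0.05 and HNRNPM at 0.12 ± 0.03. Lower were HNRNPA1 at -0.20 ± 0.03 (EMPV1_39708) and 2 probes of PRPF31, at -0.14 ± 0.04 and -0.12 ± 0.04. With the median, the LSM6 probes had 0.30 and 0.03, and each changed sign between the dye orientations. The HNRNPA1 probe had 0.00 and SNRPA 0.04 with the median. The 10 probes were chosen after their values were seen. The share of all probes at this threshold was 9.31% with the mean and 6.41% with the median, and none of the 10 passed the adjusted threshold.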
